A study of Danio rerio with 7 samples.

Results

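In the cut zebrafish tail fin, 150 transcript clusters of 433380 measured (0.0346%) stood far above the control library in every library of cut fins, at both edges of the cut and at every time sampled. They were chosen by measured values: on the log2(FPKM + 1) scale, the lowest of the 6 libraries of cut fins minus the control was taken for each cluster, and the 150 highest differences were kept, with ties ordered by mean level. FPKM counts sequenced fragments per kilobase of a feature, scaled to the library's fragments. The difference that chose them is called the score, and no test of cut fins against the control is given because the choice used that contrast. The table lists identifiers of the form Cluster-118330.122426 and pairs none with a gene name; 0 of the 150 were found in the zebrafish gene tables. The results below are therefore levels of unnamed clusters, and no pathway or cell type can be read from them.

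The study measured messenger RNA in 7 libraries from zebrafish tail fin, each group being 1 library. The control library carries no edge and no time in its labels. The other libraries came from an anterior cut edge (ACE) or a posterior cut edge (PCE) at 24, 48 or 72 h after amputation. The labels give no strain, genotype, age, drug treatment or number of pooled fish, and do not describe the cut further. The series title names calcineurin, a phosphatase activated by calcium, as a control of proximodistal polarity in the blastema.

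As background, an amputated zebrafish fin is first covered by a wound epidermis. Cells of the stump then gather beneath it into a blastema, the proliferating tissue from which the rays regrow. Early regeneration is known for wound signalling and remodelling of the extracellular matrix, and outgrowth for sustained proliferation and patterning. In bulk tissue, more cells of a type and more RNA per cell cannot be told apart.

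With 1 library per edge and time, no difference between single libraries has a replicate check. Total FPKM was lowest in ACE 72 h, at 1748110, and highest in PCE 24 h, at 3010857. The table gives no read numbers, so the depth behind these values is unknown. The PCE 24 h library stood apart: 29.3% of its FPKM lay in clusters seen in that library alone, against 1.96% to 7.45% in the other 6. For the main counts that use it, the count in a list of 150 clusters chosen again without it is given as well, although differences from 24 h in PCE still use its values. Below, values listed for an edge run in the order 24, 48 and 72 h. All 150 clusters passed the minimum mean level of 1 FPKM used for the tests. Counts are read beside 27498 clusters with a mean of at least 1 FPKM that were above 0 in all 6 libraries of cut fins, called the detected clusters. A stricter set, 4703 clusters at 10 FPKM or more in each of these libraries, was added after the data were seen, because the 150 were all above 10 FPKM in every cut library and small values scatter more.

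Against the control the 150 were mostly a contrast of presence with near absence. The control listed 98 of the 150 at 0, where 6.56% of the detected clusters were at 0. A low control value raises the score, so this contrast is in large part set by the choice. In the other 52 of the 150 the control median was 0.565 FPKM, with 18 above 1 FPKM, 6 above 5 FPKM and a highest value of 104 FPKM. Among these 52 the lowest cut library stood 12.1 to 692 times above the control, with a median of 60.5 times; a ratio is not given where the control was at 0. The lowest cut value of a member ran from 10.3 to 10127 FPKM with a median of 19.6 FPKM. Scores ran from 8.40 to 3.50 with a median of 4.12, on the log2 scale.

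The cluster with the highest score, Cluster-118330.122426, had 0 FPKM in the control, while ACE gave 2267, 769 and 336 FPKM and PCE gave 2454, 748 and 628 FPKM. Its level was highest at 24 h at both edges and lower at each later time. The cluster with the next score, Cluster-118330.134697, had a control level of 0.57 FPKM, with 534, 428 and 426 FPKM in the ACE series and 303, 828 and 278 FPKM in the PCE series. It was nearly level over time in ACE and had a maximum at 48 h in PCE.

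At the other end, the last cluster included had a score of 3.497 and the first one left out 3.494. The last one included was at 0 in the control and at 10.3 FPKM in PCE 24 h, although ACE gave 223, 306 and 281 FPKM and the later PCE libraries 350 and 306 FPKM. The first one left out was at 0 in the control, while ACE gave 10.6, 25.03 and 22.5 FPKM and PCE gave 13.9, 51.9 and 10.3 FPKM.

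**Figure D1:**
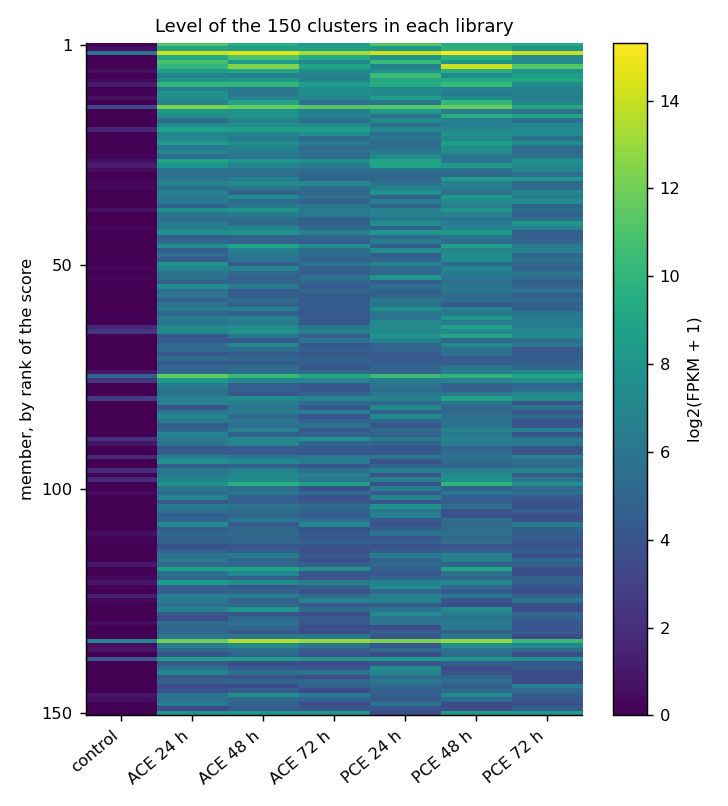
Level of each of the 150 clusters (rows, ordered by score) in each of the 7 libraries (columns), on the log2(FPKM + 1) scale given by the colour bar. The control column is at or near 0 in nearly every row, with 98 clusters listed at 0, while the columns of cut fins are all above 10 FPKM.

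Together these clusters held 0.0149% of the FPKM of the control, and 2.47%, 3.47% and 1.80% of that of ACE at 24, 48 and 72 h. In PCE they held 1.60%, 3.62% and 1.51%. The 48 h library had the highest share at each edge. One cluster carried much of this: Cluster-118330.128735, with a control level of 61.0 FPKM, measured 18424, 25371 and 10127 FPKM across the ACE libraries and 20891, 40806 and 16458 FPKM across the PCE libraries. Without it the shares were 1.58%, 2.15% and 1.23% in ACE and 0.902%, 2.02% and 0.751% in PCE, so 48 h again had the highest share at each edge. The second most abundant, Cluster-118330.128831, with a control level of 104 FPKM, measured 4038, 12548 and 7534 FPKM across the ACE libraries and 5030, 7235 and 1257 FPKM across the PCE libraries. Both had their maximum at 48 h at each edge, and the latter was lowest in PCE 72 h.

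Typical levels followed the same course. The median over the 150 clusters was 62.4, 64.1 and 35.0 FPKM for ACE and 56.2, 73.4 and 40.3 FPKM for PCE. The middle 50% of clusters lay between 39.4 and 162 FPKM in PCE 48 h and between 19.1 and 87.8 FPKM in ACE 72 h. On the deposited values, the median level at 72 h was the lowest of the 3 times at both edges. In PCE the order of 72 and 24 h depended on scaling. The median change from 24 to 72 h there was -0.43 on deposited values, where the detected clusters had -0.27. With quantile normalization, explained below, it was 0.87, where the detected clusters had 0.89.

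The cut library nearest to the control was mostly one of the 72 h libraries. ACE 72 h was the lowest of the 6 in 48 clusters and PCE 72 h in 44, followed by PCE 24 h in 28, ACE 24 h in 14, ACE 48 h in 9 and PCE 48 h in 7. Among the detected clusters ACE 72 h was the lowest in 12.4%, PCE 72 h in 33.6%, PCE 24 h in 22.8%, ACE 24 h in 11.3%, ACE 48 h in 6.6% and PCE 48 h in 13.4%. The share of ACE 72 h among the 150 was thus above that background, that of PCE 48 h below it, and those of the other 4 libraries nearer to it. The highest of the 6 was PCE 48 h in 53 clusters, PCE 24 h in 35, ACE 24 h in 29, ACE 48 h in 17, PCE 72 h in 12 and ACE 72 h in 4. Among the detected clusters the shares were 13.8%, 19.54%, 17.1%, 18.1%, 8.93% and 22.5% in the same order. The lowest library sets the score, so these counts describe the choice as well as the tissue.

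**Figure D2:**
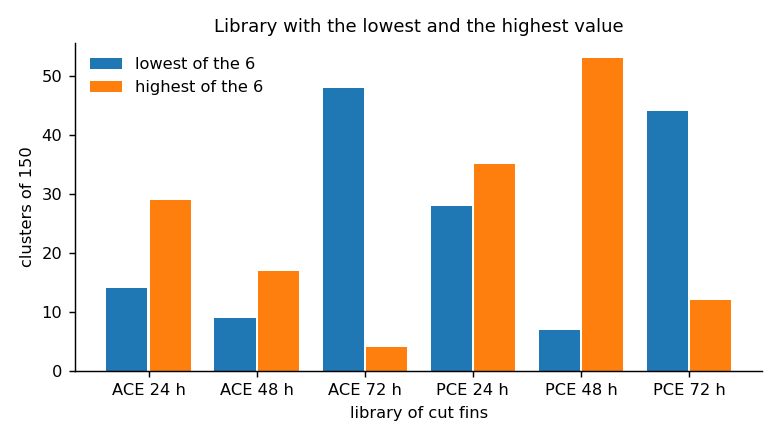
Number of the 150 clusters (vertical axis) for which each library of cut fins (horizontal axis) held the lowest value, in blue, or the highest value, in orange. The 72 h libraries were the lowest in 48 (ACE) and 44 (PCE) clusters, and PCE 48 h was the highest in 53.

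The time course asked how long the high level lasted. At both edges 51 of the 150 clusters had their highest level at 48 h (34.0%, against 18.3% of the detected clusters), 26 at 24 h (17.3%, against 15.0%) and 2 at 72 h (1.33%, against 6.90%). The other 71 had their highest level at different times at the 2 edges. Among clusters at 10 FPKM or more, 23.9% were highest at 48 h at both edges, 15.9% at 24 h and 2.89% at 72 h. In the next 150 clusters by score the shares were 26.7%, 16.0% and 1.33%, so the 48 h share of the 150 stood less far above these sets. A list chosen again without PCE 24 h held 57 highest at 48 h at both edges, 15 at 24 h and 2 at 72 h. That choice no longer asks for a high PCE 24 h value, so a shift away from 24 h was built in.

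From 48 to 72 h, 59 clusters were lower by at least 1 on the log2 scale (2-fold) in ACE, where 11.5% of the detected clusters were, and 68 were lower in PCE, where 24.7% were. At both edges 34 were lower by as much (22.7%, against 4.14% of the detected clusters) and 2 were higher (1.33%, against 1.86%). The edges went in opposite directions by as much in 0 clusters, against 2.35% of the detected clusters and 0.957% of those at 10 FPKM or more. Chosen again without PCE 24 h, a list of 150 held 28 lower at both edges, 0 higher and 5 opposite. Among the clusters at 10 FPKM or more, 3.81% were lower at both edges. In the next 150 clusters by score 36.0% were lower in ACE, near the 39.3% of the 150. In PCE 21.3% of that next set were lower, against 45.3% of the 150, and at both edges 9.33% were. By any amount, 123 of 150 were lower at 72 than at 48 h in ACE (82.0%, against 53.1% of the detected clusters) and 117 in PCE (78.0%, against 65.6%). Among clusters at 10 FPKM or more these shares were 62.3% in ACE and 72.8% in PCE, so in PCE the 150 were near that set.

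The median change from 48 to 72 h over the 150 was -0.67 in ACE and -0.73 in PCE on the log2 scale, and over the detected clusters -0.05 and -0.36. Scaling touches these values. Median-of-ratios scaling, which sets the typical shared cluster equal between libraries, gave -0.65 and -0.24 for the 150 and -0.04 and 0.02 for the detected clusters. Quantile normalization, which gives all libraries one distribution, gave -0.50 and -0.35 for the 150 and -0.02 and 0.03 for the detected clusters. The median of the 150 minus that of the detected clusters thus lay between -0.62 and -0.48 in ACE and between -0.38 and -0.26 in PCE under these 3 scalings. With quantile normalization 20 clusters, not 34, were lower by at least 1 at both edges (13.3%, against 2.68% of the detected clusters).

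**Figure D3:**
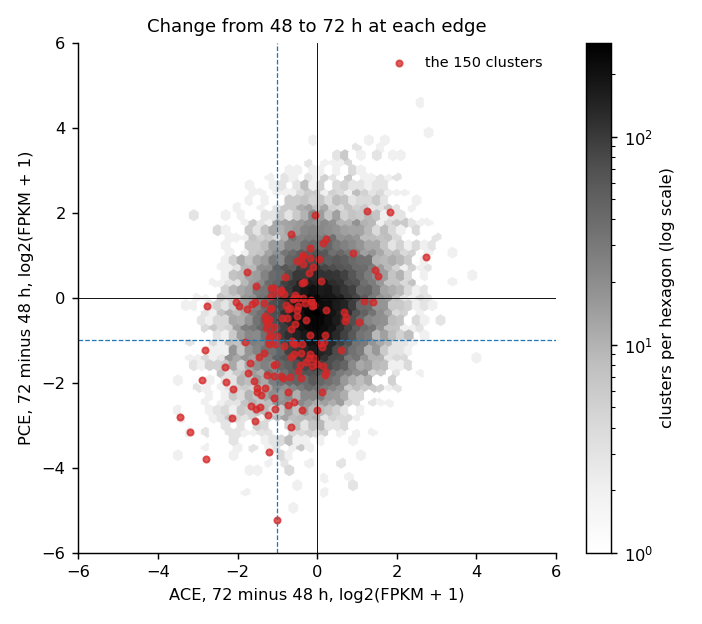
Difference between 72 and 48 h on the log2(FPKM + 1) scale in ACE (horizontal) and PCE (vertical). Red points are the 150 clusters, grey hexagons count the detected clusters on a log colour scale, and dashed lines mark a difference of -1; 34 of the 150 lie below and left of both dashed lines.

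The step from 24 to 48 h was less uniform. At both edges 18 clusters were higher at 48 h by at least 1 (12%, against 4.88% of the detected clusters) and 12 were lower (8%, against 3.37%). In PCE 53 were higher (35.3%, against 21.3%) and 26 lower (17.3%, against 16.8%). In ACE 23 were higher (15.3%, against 12.8%) and 23 lower (15.3%, against 8.62%). The lower count in PCE and the higher count in ACE were thus near those of the detected clusters. Among clusters at 10 FPKM or more these shares were 11.2% and 8.06%, so the 150 were above that set in both. Chosen again without the PCE 24 h library, a list of 150 held 27 that were higher and 7 that were lower at both edges. That choice no longer asks for a high PCE 24 h value, while the PCE difference still uses it. A shift toward higher counts was therefore built in, and the list cannot show what the balance of 18 against 12 rests on.

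Over the whole interval, from 24 to 72 h, 59 clusters were lower by at least 1 in ACE (39.3%, against 12.1% of the detected clusters) and 6 were higher (4%, against 14.3%). In PCE 49 were lower (32.7%, against 23.5%) and 25 were higher (16.7%, against 12.9%). At both edges 26 were lower (17.3%, against 4.61%) and 1 was higher (0.667%, against 3.05%). Quantile normalization reduced the number lower at both edges to 10 (6.67%, against 1.25%) and raised the number higher to 5 (3.33%, against 8.31%). A list chosen again without PCE 24 h held 16 that were lower at both edges and 7 that were higher. In PCE alone that list held 27 lower and 76 higher, the opposite balance, though dropping the demand for a high PCE 24 h value builds in a shift toward higher counts. The PCE direction also turned with scaling: the median change of the 150 was -0.43 on deposited values, -0.08 with median-of-ratios scaling and 0.87 with quantile normalization, where the detected clusters had -0.27, 0.00 and 0.89. In ACE it was -0.76, -0.86 and -0.50, against 0.03, -0.06 and 0.06.

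Cluster-118330.169951 was named because, among the clusters lower at 72 h at both edges, the smaller of its 2 changes from 24 to 72 h was the largest. Larger changes at one edge alone occurred in other members. The control had 0 FPKM, ACE gave 1862, 287 and 134 FPKM, and PCE gave 1267, 246 and 153 FPKM. Its fitted difference between 72 and 24 h on the log2 scale was -3.42 ± 0.55 (SE), and limma's adjusted p was 0.543. Cluster-118330.85910, also at 0 in the control, measured 121.8, 22.9 and 13.5 FPKM across the ACE libraries and 104.3, 22.4 and 18.5 FPKM across the PCE libraries, with a fitted difference of -2.76 ± 0.35 (SE) and the same limma adjusted p. In both clusters most of the difference lay between 24 and 48 h, and the edges were close to each other at each time.

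In the other direction, Cluster-118330.52382, at 0 in the control, measured 10.6, 10.5 and 26.2 FPKM across the ACE libraries and 33.8, 21.9 and 94.0 FPKM across the PCE libraries. It was the cluster higher by at least 1 at both edges at 72 h, with a fitted difference of 1.34 ± 0.37 (SE) and a limma adjusted p of 0.543. Cluster-118330.129974, also at 0 in the control, gave 235, 832 and 394 FPKM for ACE and 13.6, 1038 and 202 FPKM for PCE, with a maximum at 48 h at both edges and a limma adjusted p of 0.543. Its low value in PCE 24 h sets most of its difference.

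By limma with Benjamini-Hochberg adjustment over 122784 clusters, 0 of the 150 were called for 72 against 24 h, and 0% of all clusters were. At an unadjusted p under 0.05 there were 32 lower and 1 higher among the 150. Of the 122784 clusters 3581 passed that level, a total not split by direction. With quantile normalization the median was 0.22 in place of -0.50 over the 150, and 0.00 in place of -0.22 over all clusters. That normalization made the counts 10 lower and 3 higher, with 3983 clusters in all. A fit without the mean-variance trend made them 9 and 0, and leaving out each library in turn gave 13 to 21 lower and 0 to 8 higher, the 8 without ACE 24 h. The fit had 2 residual degrees of freedom, so an absence of calls does not show that levels were equal.

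The courses at the edges were related from cluster to cluster. Across the 150 clusters, Pearson's r between the ACE and the PCE change was 0.504 from 24 to 48 h, 0.447 from 48 to 72 h and 0.235 from 24 to 72 h. Across the 4703 clusters at 10 FPKM or more it was 0.356, 0.130 and 0.182. Across a list chosen again without PCE 24 h it was 0.460, 0.216 and 0.293, so the value from 48 to 72 h was lower by more than 1.5 times. The 2 changes of each pair share no library; clusters are not independent replicates, and no p is given. From 24 to 72 h the edges went in opposite directions by at least 1 in 8 clusters (5.33%). The share was 3.97% among the detected clusters and 2.36% among those at 10 FPKM or more.

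The edge comparison asked whether the clusters were balanced between PCE and ACE. At 24 h 26 were higher in PCE by at least 1 (17.3%, against 13.6% of the detected clusters) and 40 lower (26.7%, against 20.3%). With 0.1 added to FPKM in place of 1, the shares of the detected clusters at 24 h were 17.5% and 26.2%, near those of the 150. At 48 h 27 were higher (18.0%, against 6.23%) and 12 lower (8%, against 12.2%). Among clusters at 10 FPKM or more 4.61% were higher and 4.91% lower at 48 h, so the 150 were above that set in both directions. At 72 h 35 were higher (23.3%, against 10.4% of the detected clusters) and 24 lower (16.0%, against 32.0%). In the next 150 clusters by score 34.0% were higher and 8.67% lower at 72 h, so a lean to PCE at that time was not particular to the 150. At 48 h that next set had 11.3% higher and 12.7% lower. On the deposited values the 150 thus leaned to ACE at 24 h and to PCE at 48 and 72 h, a lean that at 24 h flips with median-of-ratios scaling and at 48 h is nearly even with quantile normalization, while the detected clusters leaned to ACE at each time on the deposited values.

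The median of PCE minus ACE over the 150 was, on the log2 scale, -0.16 at the first time, 0.21 at the next and 0.12 at the last. Over the detected clusters it was -0.18, -0.15 and -0.52, and over those at 10 FPKM or more -0.25, -0.06 and -0.43. At 24 h the 150 were close to the other clusters, and at 72 h they lay 0.64 above the detected clusters and 0.55 above those at 10 FPKM or more. Median-of-ratios scaling, which raised PCE 72 h against ACE 72 h, moved the medians of the 150 to 0.07, 0.42 and 0.81 and those of the detected clusters to 0.01, 0.03 and 0.03. Quantile normalization moved them to -1.23, -0.08 and 0.07, and to -1.18, -0.36 and -0.35. The sign of the balance therefore depends on the scaling at 24 and 48 h, while the 150 lay above the detected clusters by 0.28 to 0.39 at 48 h and by 0.42 to 0.78 at 72 h under each of these 3 scalings.

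The counts depend on it as well. With median-of-ratios scaling 31 were higher and 28 lower in PCE at 24 h (20.7% and 18.7%, against 17.0% and 15.6% of the detected clusters), which is near the background. At 48 h they were 39 and 9 (26.0% and 6%, against 8.27% and 8.42%), and at 72 h 66 and 14 (44.0% and 9.33%, against 20.4% and 15.9%). With quantile normalization they were 13 and 87 at 24 h (8.67% and 58.0%, against 3.03% and 57.3%). At 48 h they were 18 and 19 (12% and 12.7%, against 4.44% and 17.2%), and at 72 h 32 and 24 (21.3% and 16.0%, against 13.8% and 27.6%). Lists of 150 chosen again without PCE 24 h held 34 higher and 15 lower at 48 h and 40 and 21 at 72 h. At 24 h that list held 17 higher and 83 lower. A shift toward lower counts was built in there, because a high PCE 24 h value was no longer asked for. Without ACE 72 h the list held 61 higher and 16 lower at 72 h. Here too a shift toward PCE was built in, because a high ACE 72 h value was no longer asked for. Counts for a list chosen without PCE 72 h are not given, so these lists cannot show what the balance at 72 h rests on. Because the choice asks for a high lowest value, the edge and time differences are not wholly independent of it.

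**Figure D4:**
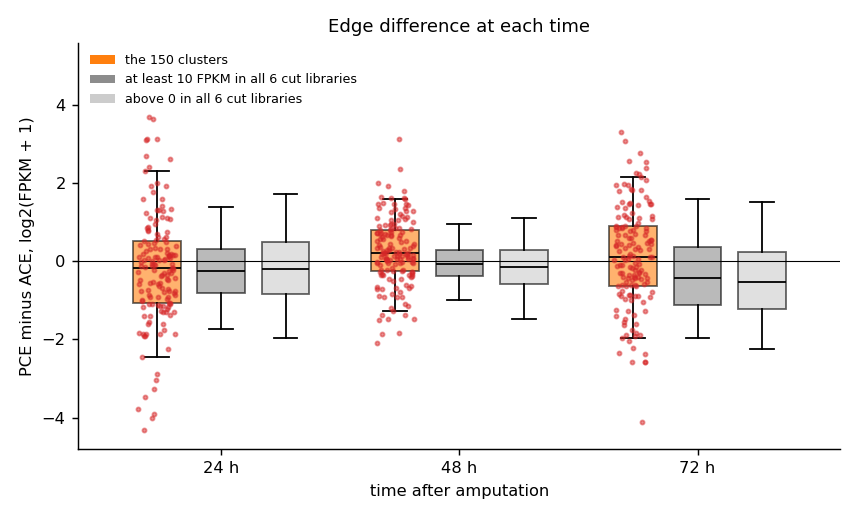
PCE minus ACE on the log2(FPKM + 1) scale (vertical axis) at 24, 48 and 72 h (horizontal axis). Boxes show the median and quartiles with whiskers at the 5th and 95th percentiles for the 150 clusters (orange, with each cluster as a red point), clusters at 10 FPKM or more in all cut libraries (dark grey) and detected clusters (light grey); at 72 h the medians are 0.12, -0.43 and -0.52.

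A steady edge difference was rare. PCE was above ACE by at least 1 at every time in 3 clusters (2%, against 0.822% of the detected clusters) and below it in 3 (2%, against 1.45%). Leaving out the 24 h pair of libraries, 14 clusters were higher at both remaining times (9.33%, against 2.09%) and 4 were lower (2.67%, against 5.56%). By any amount, PCE was higher at every time in 30 clusters and lower in 21; in the detected clusters these shares were 10.1% and 29.4%. In 42 clusters the edges lay within 1 of each other at every time (28.0%), against 34.3% of the detected clusters and 41.7% of those at 10 FPKM or more.

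Cluster-118330.175631 had the most lasting difference toward PCE. The control had 0 FPKM, ACE gave 17.3, 63.7 and 20.4 FPKM, and PCE gave 238, 567 and 146 FPKM, with a maximum at 48 h at each edge. On the log2 scale PCE minus ACE was 3.21 ± 0.32 (SE), higher in 3 of 3 pairs, with a limma adjusted p of 0.475. Cluster-118330.169673 was at 0 in the control, while ACE gave 17.1, 15.7 and 11.5 FPKM and PCE gave 155, 84.4 and 33.5 FPKM, with a difference of 2.31 ± 0.40 (SE) and the same limma adjusted p. Its edges came nearer to each other with time.

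Toward ACE, Cluster-118330.129333, with a control level of 2.16 FPKM, measured 447, 418 and 376 FPKM across the ACE libraries and 145.7, 149.01 and 141.0 FPKM across the PCE libraries. Each edge was nearly level over time, and PCE minus ACE was -1.50 ± 0.35 (SE) with a limma adjusted p of 0.475. Cluster-118330.168193 was at 0 in the control, while ACE gave 62.7, 89.2 and 97.9 FPKM and PCE gave 26.1, 36.5 and 15.7 FPKM, with a difference of -1.69 ± 0.38 (SE) and the same limma adjusted p. Here the edges were farthest apart at 72 h. The same sign at all 3 times was a condition for naming these 4 clusters.

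Limma called 0 of the 150 for the edge, and 0% of the 122784 clusters tested. At an unadjusted p under 0.05, 14 of the 150 were higher and 15 lower in PCE, and 4396 clusters in all passed that level. The balance turned with scaling, to 29 higher and 3 lower with median-of-ratios scaling and 3 and 17 with quantile normalization. In all, 3704 and 6761 clusters passed that level in these fits. The median difference over the 150 was 0.01 on deposited values, 0.39 with median-of-ratios scaling and -0.41 with quantile normalization. Over all clusters tested it was 0.17, 0.39 and 0, so with median-of-ratios scaling the 150 had the median of all clusters. Without the trend the balance was 3 and 3, and 4476 clusters passed in all. Leaving out each library in turn gave 4 to 13 higher and 2 to 11 lower, with 13 and 2 without ACE 24 h and 11 and 2 without PCE 24 h.

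**Figure D5:**
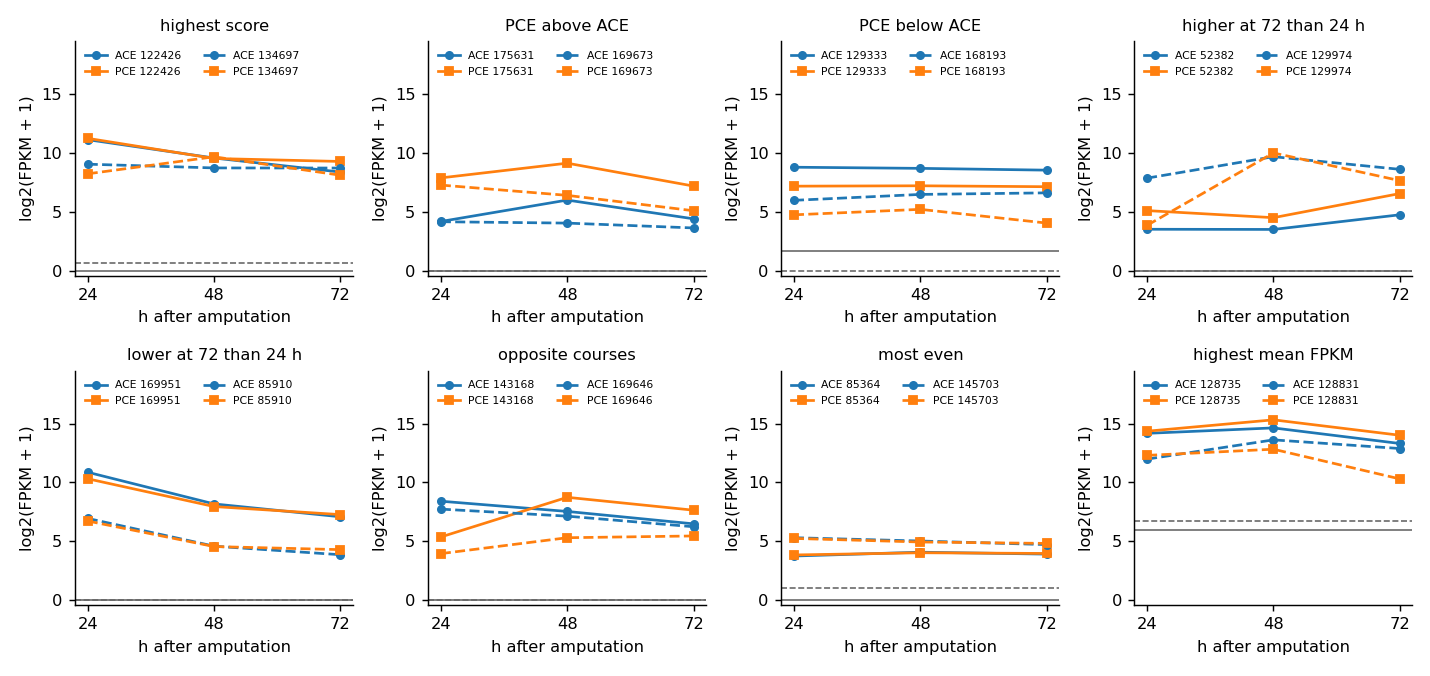
Level on the log2(FPKM + 1) scale (vertical axis) against time after amputation (horizontal axis) for the clusters named in the text, 2 to a panel, with ACE in blue circles and PCE in orange squares; solid and dashed lines tell the 2 clusters apart by the last number of their identifiers, and grey lines give the control. The most even pair stays within 0.59 on the log2 scale, while the clusters named for opposite courses start 3.04 and 3.78 lower in PCE at 24 h.

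Among themselves the 150 differed widely in how much they varied. The range over the 6 libraries of cut fins had a median of 2.33 on the log2 scale and ran from 0.33 to 7.25, against a median of 1.74 in the detected clusters and 1.55 in those at 10 FPKM or more. In 8 clusters it was under 1 and in 10 over 4. The most even, Cluster-118330.85364, was at 0 in the control and between 12.4 and 15.8 FPKM in the 6 cut libraries. The next, Cluster-118330.145703, had a control level of 1.01 FPKM, with 38.4, 31.5 and 25.3 FPKM for ACE and 36.8, 29.6 and 27.2 FPKM for PCE. These reached their cut-fin level by 24 h at both edges and stayed near it.

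No pair of clusters repeated one another in level. Of the 11175 pairs, 0 matched within 0.3 on the log2 scale in all 6 cut libraries, and 9 pairs did after each cluster was centred on its own mean. All 150 identifiers had 118330 as their first number, as did 95.8% of the detected clusters and 99.9% of those at 10 FPKM or more, so this is shared with the background. In 3 pairs the second numbers were adjacent, and after centring these differed by 0.61 to 3.57 at their most different library. Near-identical transcripts could still be split between clusters, which makes the level of a single cluster uncertain in that respect.

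The clusters listed at 0 in the control and those above 0 in it are given side by side, with no test of their difference. The median change from 48 to 72 h was -0.70 in ACE and -0.73 in PCE for the 98 listed at 0 in the control, and -0.60 and -0.75 for the other 52. From 24 to 48 h it was 0.14 and 0.41 in the former and 0.07 and 0.50 in the latter, and from 24 to 72 h -0.79 and -0.46 against -0.69 and -0.39. PCE minus ACE had medians of -0.19, 0.25 and 0.23 at 24, 48 and 72 h in the former and -0.14, 0.15 and -0.02 in the latter, so at 72 h the medians differed in sign.

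By rank of the score, lower levels at 72 than at 48 h at both edges, by at least 1, were found in 15 of the 50 clusters with the highest scores, in 10 of the next 50, in 9 of the last 50, and in 14 of the 150 clusters that follow by score. The share of such clusters was 4.14% among the detected clusters. At 48 h PCE was above ACE by at least 1 in 13, 11 and 3 of these 50s and below it in 4, 2 and 6. In the following 150 it was above in 17 and below in 19. Among the detected clusters 6.23% were above and 12.2% below at 48 h, so the last 50 were near that background. At 72 h PCE was above ACE in 13, 16 and 6 of the 50s and below it in 9, 5 and 10. In the last 50 more were thus below than above, as among the detected clusters, where 10.4% were above and 32.0% below. The following 150 held 51 above and 13 below at that time (34.0% and 8.67%).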

How the data were processed

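RNA from 7 zebrafish tail fin libraries was analysed from 1 table of FPKM values computed and deposited by the authors, with 1 column per library. HISAT2 2.0.5, HTSeq 0.9.1 and edgeR are named in the submitters' processing notes, without role or order; no build, annotation or way of making the clusters is named in these sources. Depth per library is unknown, and FPKM depends on each library's makeup, so 2 other scalings were tried.

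The analysis used log2(FPKM + 1), which shrinks differences between small values. Every cluster averaging 1 FPKM or more over the 7 libraries was tested with limma 3.58.1 in R 4.3.3 (mean-variance trend, Benjamini-Hochberg adjustment at 0.05) on the 6 libraries of cut fins, with time and edge as factors. Nothing says that libraries came from separate fish, and no edge and time has a repeated library. The residuals behind the standard errors and p-values are departures from a sum of an edge and a time effect. They do not measure scatter between fish. The limma step was checked on data made with known changes, and at this minimum recovered none of them, so a count of 0 calls carries little weight. Differences of single libraries were counted at 1 or more. Python 3.11.15, numpy 2.4.6, pandas 2.3.3 and matplotlib 3.10.9 were used otherwise.

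The members, lists and rules were chosen with earlier results of these data known. At most 2 clusters per direction were named in each comparison: those with the highest scores, the largest difference by its smallest size over the times or edges with 1 sign (or opposite signs between edges), the smallest range and the highest mean. The set at 10 FPKM or more, the ranks beyond 150 and the counts and correlations of lists chosen again were added after seeing the data.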

Additional observations from a re-analysis of the deposited data

Results flagged for a closer look

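In 2 named clusters the edges went in opposite directions from 24 to 72 h, each edge being 1 library, and the difference between the edges was not tested. Cluster-118330.143168 was at 0 in the control, while ACE gave 337, 184 and 88.2 FPKM and PCE gave 40.2, 425 and 198 FPKM, in order of time. Its change from 24 to 72 h was -1.92 in ACE and 2.28 in PCE on the log2 scale. Cluster-118330.169646 was at 0 in the control, while ACE gave 211, 139 and 74.1 FPKM and PCE gave 14.4, 38.4 and 42.7 FPKM, with changes of -1.5 and 1.501. Both were named for this opposition, and in both the lowest value was in PCE 24 h, the library that stood apart in its makeup, whose part in the pattern was not tested.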

How the results depend on the processing

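The settings below were compared with the deposited FPKM, a pseudocount of 1 and a difference of at least 1. Of 62 counts under alternatives chosen at the start, 38 stayed within 1.5 times the reported count, all 15 with a pseudocount of 0.1 among them. Median-of-ratios scaling gave 66 clusters above and 14 below ACE in PCE at 72 h (44.0% and 9.33%, against 20.4% and 15.9% of the detected clusters). It gave 8 above and 0 below at every time (5.33% and 0%, against 1.51% and 0.586%). At both edges 5 were then higher at 72 than at 48 h (3.33%, against 2.69%, near the background). Quantile normalization gave 13 above and 87 below at 24 h (8.67% and 58.0%, against 3.03% and 57.3%) and 19 below at 48 h (12.7%, against 17.2%). At both edges 4 were then higher and 20 lower at 72 than at 48 h (2.67% and 13.3%, against 2.99% and 2.68%). From 24 to 72 h 5 were higher and 10 lower (3.33% and 6.67%, against 8.31% and 1.25%). A threshold of 1.5-fold gave 52 above and 25 below at 48 h (34.7% and 16.7%, against 14.4% and 25.2% of the detected clusters). It gave 54 and 41 at 72 h (36.0% and 27.3%, against 17.3% and 47.4%), and 9 and 6 at every time (6% and 4%, against 2.44% and 5.97%). At both edges 20 were lower at 48 than at 24 h (13.3%, against 8.10%). From 48 to 72 h 5 were higher and 53 lower (3.33% and 35.3%, against 4.84% and 10.9%). From 24 to 72 h 3 were higher and 43 lower (2% and 28.7%, against 7.055% and 10.8%). A looser threshold admits more by construction. Without the 24 h pair, 14 were above ACE at every remaining time.

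Chosen again, 114 of the 150 were shared with a pseudocount of 0.1, 133 with median-of-ratios scaling, 117 with quantile normalization, and 97 (without PCE 24 h) to 144 (without ACE 48 h) when a library was left out. A library left out of the choice no longer needs a high value, so counts that use it shift by construction. A list chosen without ACE 72 h had 61 above ACE at 72 h, 8 at every time, and 0 higher at 72 than at 48 or at 24 h at both edges. One chosen without PCE 24 h had 17 above and 83 below at 24 h; at both edges 7 were lower at 48 than at 24 h, 0 higher at 72 than at 48 h, and 7 higher and 16 lower at 72 than at 24 h. The other 20 of 30 such counts stayed within 1.5 times.

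Limma called 0 of the 150 in 23 of 24 alternative fits. Leaving out each library gave 0 to 2 calls for 72 against 24 h, the 2 without ACE 24 h, where PCE 24 h is the only library of that time and 1 residual degree of freedom remains; 25589 clusters were called in all in that fit. The cause of the other changes was not tested. Depth is unknown, and with 1 library per edge and time no single difference has an error of its own.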
